A study of Homo sapiens with 4 samples.

Results

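CRABP2 encodes cellular retinoic acid binding protein 2, and its expression was followed here across 4 groups of cultures of the human embryonal carcinoma (hEC) cell line NCCIT. The gene is represented by probe GI_6382069-S, which is 1 of the 47289 probes left on each array after 4 control probes were set aside. The probe was chosen from its signal on these same 12 arrays, namely for its graded increase over the 3 knock-downs, so its own levels are given as a description and without a test. NCCIT was derived from a human germ cell tumour and resembles undifferentiated embryonic stem cells.

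All cells were grown in high-glucose DMEM with 10% fetal calf serum and 2 mM L-glutamine. Per the labels, they were seeded at 70000 cells per square centimetre, exposed to the lipofection reagent Hyperfect and collected at day 2.5. The mock group received the reagent without RNA. The OCT4, NANOG and SOX2 knock-down groups received the reagent with endoribonuclease-prepared siRNA (esiRNA), a pool of short interfering RNAs cut from one long double-stranded RNA against the named transcription factor. No group received an esiRNA without a target in the cells, so the presence of esiRNA and the loss of the target cannot be told apart in comparisons with mock. Each group was hybridised as 3 biological replicates to Illumina bead arrays, 1 replicate per array. The study's methods give a lower seeding density and harvests on whole days, and the values here carry the description given in the labels.

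Retinoic acid is made from retinol by oxidation through retinal, and it acts by binding nuclear receptors (RAR with RXR partners) that sit on DNA at pairs of short half-sites. Within the cytoplasm it is carried by small intracellular lipid-binding proteins. CRABP2 delivers the ligand to RAR in the nucleus, CRABP1 is its closest relative and is mainly linked to storage and breakdown, and the CYP26 enzymes oxidise retinoic acid for removal. Embryonal carcinoma cells are a classical system for retinoic acid-induced differentiation, and CRABP2 is itself known as a retinoic acid-responsive gene.

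CRABP2 lies on chromosome 1 of GRCh38.p14, at chr1:156699606-156705784, and is read from the minus strand. The 250 bases before its RefSeq start, chr1:156705785-156706034, are shown because they are the stretch in which retinoid half-sites were looked for. They are written 5′ to 3′ on the minus strand, with the only half-site match in capitals.

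CRABP2 upstream window: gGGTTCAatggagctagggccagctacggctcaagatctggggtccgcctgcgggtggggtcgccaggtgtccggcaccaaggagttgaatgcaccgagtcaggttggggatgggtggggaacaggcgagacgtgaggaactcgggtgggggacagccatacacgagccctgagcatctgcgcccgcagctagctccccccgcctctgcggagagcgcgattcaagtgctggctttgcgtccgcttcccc

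The letters searched, on both strands, were the retinoid half-site AGGTCA with its common variants AGTTCA (changed inside), GGGTCA (changed at the first base) and GGTTCA (changed at both places). The octamer ATGCAAAT, known for OCT4 and its relatives, and the SOX core CATTGTT were searched as well. The CRABP2 window held 1 half-site, GGTTCA, whose first base lies 249 bases before the start. GGTTCA occurred in 7.16% and at least 1 of the half-sites in 33.8% of the 35114 RefSeq windows of the same length. The octamer, present in 1.63% of windows, and the SOX core, present in 2.87%, did not occur in the CRABP2 window. With 65.6% G and C, the window was above the median of 58.0% over all windows. The letters of the window say nothing about which factors bind there.

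For comparison, CYP26A1, the retinoic acid-degrading enzyme whose values are described further below, held a pair of half-sites in direct repeat in its window. The stretch is chr10:93073797-93073825 on the plus strand of GRCh38.p14, with the half-sites in capitals. The RefSeq start used for this window lies inside the annotated gene (chr10:93073475-93077885), downstream of the first annotated base.

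CYP26A1 direct repeat: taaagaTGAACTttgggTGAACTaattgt

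Read on the minus strand, both half-sites are AGTTCA and are separated by 5 bases. A direct repeat of any pair of the half-sites at this spacing was found in 26 of the 35114 windows, or 0.074%. No such repeat was found in the CRABP2 window.

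On each array the values are averages over the beads of a probe, in arbitrary units, together with the spread between beads and a detection score that reaches 1 for probes brighter than all negative controls. A probe was called detected at a score of at least 0.99. Between 11196 and 12858 probes were detected per array, which is 23.7% to 27.2% of all probes. Over the normalized log2 signals, the lowest correlation of an array with its own group was 0.9951 to 0.997. The highest correlation of an OCT4 or SOX2 knock-down array with another group was 0.9953 to 0.9965, and these ranges overlapped. The background signal was 92.5 to 99.8 units on the mock, 97.9 to 104 on the NANOG, 103.6 to 109.5 on the SOX2 and 110.2 to 118 on the OCT4 knock-down arrays. It thus moved with the groups in the same order as CRABP2, over a far smaller range.

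CRABP2 was detected on 12 of 12 arrays. In mock-treated cells its raw signal was 143.3, 152.8 and 150.7, close to the background. In the NANOG knock-down the signal was 367.9, 368.2 and 334.3, in the SOX2 knock-down 2858.8, 2656.8 and 2415.8, and in the OCT4 knock-down 4296.2, 3647.2 and 3398.2. No array of any group overlapped with the arrays of another group. Mean raw signals were 148.9 ± 4.99 in mock, 356.8 ± 19.5 in the NANOG, 2644 ± 222 in the SOX2 and 3781 ± 464 in the OCT4 knock-down (SD, n = 3 each). In the mock group the spread between beads was 4.9, 7.7 and 5.1 units, similar in size to the spread between the arrays.

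**Figure D1:**
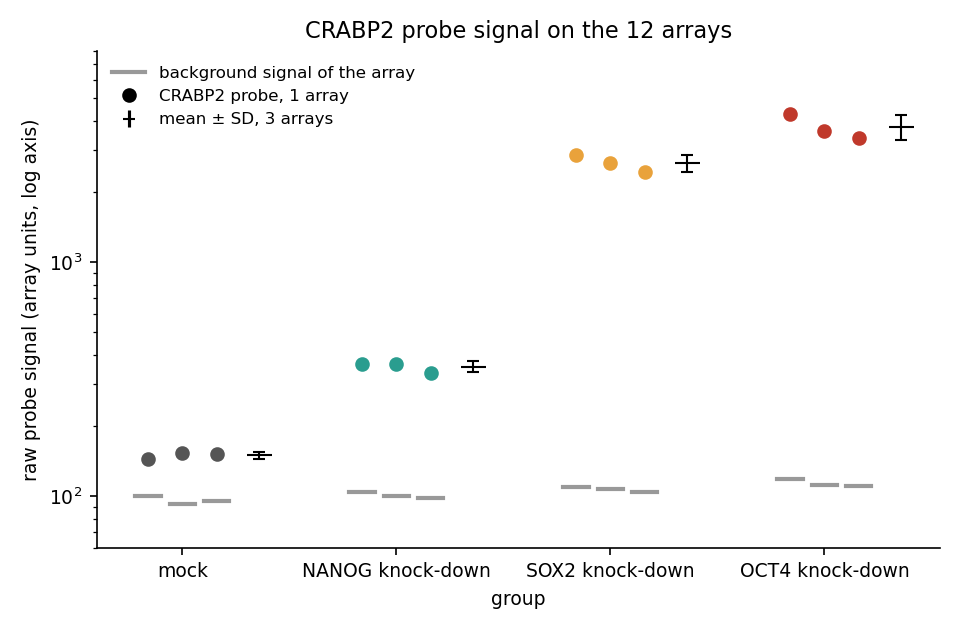
Raw signal of the CRABP2 probe (vertical axis, array units, log scale) on each of the 12 arrays by group, with the mean ± SD of 3 arrays in black and the background signal of each array as a grey bar. Mock arrays sit just above the background at 143.3 to 152.8, NANOG knock-down arrays at 334.3 to 368.2, and SOX2 and OCT4 knock-down arrays at 2415.8 to 4296.2.

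After background correction and quantile normalization, the mean log2 signal was 7.16 ± 0.12 in mock, 8.46 ± 0.04 in the NANOG, 11.41 ± 0.01 in the SOX2 and 11.53 ± 0.07 in the OCT4 knock-down (SD, n = 3). On this scale CRABP2 was 4.37 ± 0.08 (SE) log2 units above mock in the OCT4 knock-down, a ratio of 20.7. The difference was 4.25 ± 0.07 in the SOX2 knock-down, a ratio of 19.0, and 1.30 ± 0.07 in the NANOG knock-down, a ratio of 2.46. Because these are bulk RNA samples, more cells with the transcript and more transcript per cell cannot be told apart.

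The size of these ratios depended on how the background was handled, since the mock signal was only 43.5, 60.3 and 55.9 units above the background of its arrays. The correction used adds an offset of 50 to every probe, which shrinks ratios of dim probes. When the background was subtracted outright before quantile normalization, the ratios to mock became 39.6 in the OCT4, 36.2 in the SOX2 and 3.87 in the NANOG knock-down. The authors' deposited group means, which are background-subtracted and rank-invariant normalized, were 53.7 in mock, 219 in the NANOG, 2159 in the SOX2 and 2227 in the OCT4 knock-down. Their ratios to mock were 4.08, 40.2 and 41.5 in this order. The order of the groups was the same under all 6 combinations of background correction and scaling and in the authors' means.

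**Figure D2:**
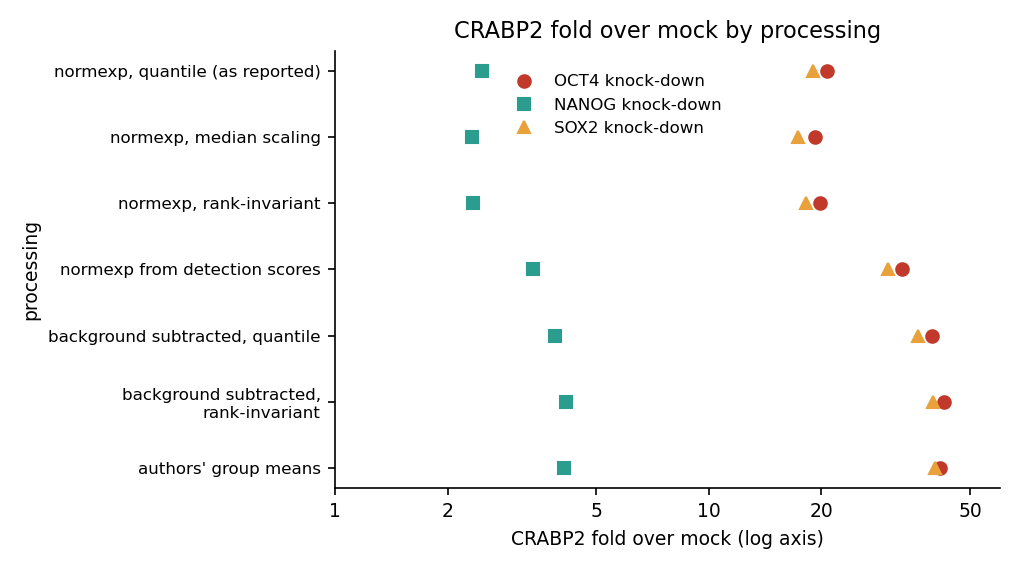
CRABP2 fold over mock (horizontal axis, log scale) for the 3 knock-downs under each background correction and scaling, with the authors' group means in the last line. The OCT4 knock-down ranges from 19.3-fold to 42.7-fold and the NANOG knock-down from 2.32-fold to 4.15-fold, and the order of the knock-downs does not change.

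Neighbours in this order were unequally spaced. From mock to the NANOG knock-down the gap was 1.30 log2 units, and from the NANOG to the SOX2 knock-down it was 2.94, a ratio of 7.69. Between the SOX2 and the OCT4 knock-down the gap was 0.12 log2 units, a ratio of 1.09, which was 1.91 times the larger of both SDs. The lowest normalized OCT4 value was 2817.8 and the highest SOX2 value 2736.2. The groups therefore just failed to overlap, whereas in the raw signals 3398.2 stood against 2858.8. Over the 6 settings the OCT4 minus SOX2 difference was between 0.101 and 0.151 log2 units, and in the authors' means it was 0.0447.

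CRABP2 moved from the dim to the bright end of the detected probes. Its place by signal was 9324 of 11196, 8657 of 11709 and 8506 of 11578 detected probes on the mock arrays, with 16.7% to 26.5% of detected probes dimmer. On the NANOG knock-down arrays it was 5317 of 12270, 5133 of 11644 and 5226 of 11905, near the middle. It reached 807 of 12047, 794 of 12136 and 789 of 11840 in the SOX2 and 676 of 12762, 704 of 12611 and 760 of 12858 in the OCT4 knock-down, where 93.3% to 94.7% of detected probes were dimmer. These places describe brightness on the array, which depends on the probe as well as on the transcript.

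By the size of its difference from mock, CRABP2 took place 8 of 12374 tested probes in the OCT4, place 9 in the SOX2 and place 27 in the NANOG knock-down. Tested probes are those detected on all 3 arrays of at least 1 group. In the OCT4 knock-down the probes above it were those of LIX1, NPPB, ANKRD1, EDN1, GABRP, WLS and TAGLN, with differences from 4.97 for LIX1 down to 4.48 for TAGLN, and COL11A1 followed with 4.19. NPPB encodes a natriuretic peptide, EDN1 the vasoconstrictor endothelin 1, and TAGLN the smooth muscle protein transgelin. In the SOX2 knock-down the next probe above was GABRP with 4.32 and the next below LEFTY2 with 4.06. In the NANOG knock-down EFHD1 with 1.31 and FHOD3 with 1.27 were the neighbours. Among probes detected on all 12 arrays CRABP2 took place 3 in both the OCT4 and the SOX2 knock-down.

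**Figure D3:**
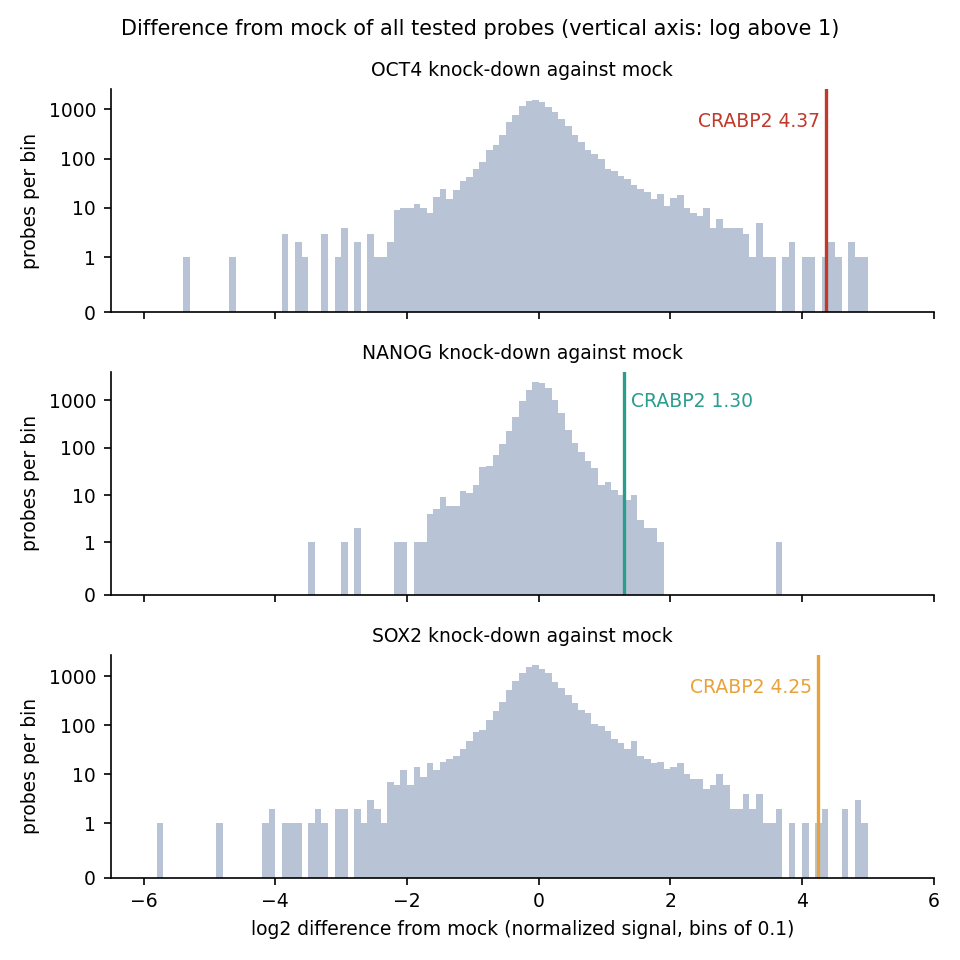
Number of tested probes per bin of log2 difference from mock (bins of 0.1, vertical axis logarithmic above 1) in the 3 knock-downs, with CRABP2 as a coloured line at 4.37 (OCT4), 1.30 (NANOG) and 4.25 (SOX2). CRABP2 lies at the far right of the distribution in the OCT4 and SOX2 knock-downs and in the right tail in the NANOG knock-down.

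Genes with the most similar pattern were taken as the 10 named probes whose 3 differences from mock were nearest to those of CRABP2 by root mean square difference, out of 2249 named probes detected on all 12 arrays. The nearest was WLS, which carries Wnt proteins to the cell surface, at a root mean square difference of 0.403 log2 units. PALLD, encoding the actin-associated protein palladin, followed at 0.452 and TAGLN at 0.49. LMCD1, HES4, RCAN1, CNTNAP2, ANXA1 and MEF2C lay at 0.786 to 1, and 1 of the 10 probes is not reported here.

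WLS had raw signals of 129.5, 139.3 and 122.2 in mock, 209, 212 and 203 in the NANOG, 3139.2, 2749.1 and 2436.8 in the SOX2 and 3776.2, 3171.4 and 3154.4 in the OCT4 knock-down. Like CRABP2, it was near background in mock and bright in the OCT4 and SOX2 knock-downs. Its log2 differences from mock were 4.50 (OCT4), 0.73 (NANOG) and 4.62 (SOX2), and those of PALLD were 3.87, 0.84 and 3.86. In the NANOG knock-down these 9 genes had differences of 0.32 to 1.13, all below the 1.30 of CRABP2. CNTNAP2, a neurexin-family adhesion protein, came closest with 1.13. Likeness was measured over 3 differences that share the mock arrays, and the nearest genes were also the nearest among all 9898 other probes detected on every array.

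**Figure D4:**
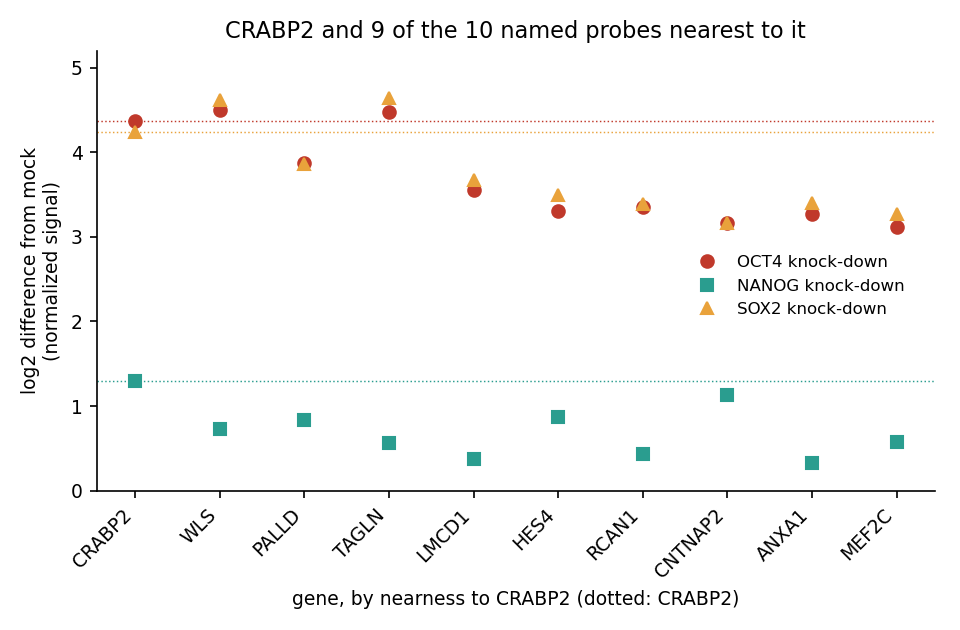
Log2 difference from mock (vertical axis, normalized signal) in the 3 knock-downs for CRABP2 and 9 of the 10 named probes nearest to it, ordered by nearness, with the CRABP2 values as dotted lines. WLS, PALLD and TAGLN lie near CRABP2 in the OCT4 and SOX2 knock-downs, and all 9 genes lie below it in the NANOG knock-down.

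Genes on lists built around the retinoid pathway, other than CRABP2, were tested with limma across all 12374 probes. A probe was called at an adjusted p under 0.01 with a change of at least 1.5-fold. The lists also hold fatty acid and bile acid carriers of the lipid-binding family and genes known to respond to retinoic acid. Their probes are called retinoid probes below, although not all belong to the pathway itself. Of 95 listed genes, 22 had a named probe, 23 probes in all. The names came from a table of probes that the study had selected on these samples as changed in the OCT4 or NANOG knock-down, so the counts below are not independent evidence of a change in the pathway. In the OCT4 knock-down 9 of the 23 probes rose and 7 fell, where 8.58% of all tested probes rose and 6.13% fell. In the SOX2 knock-down 8 rose and 7 fell, against 8.72% and 6.09% of all probes. In the NANOG knock-down 6 rose and 2 fell, against 2.21% and 1.96%. The median log2 difference of the 23 probes was 0.232, 0.28 and 0.22 in the OCT4, SOX2 and NANOG knock-downs, and that of all tested probes was -0.0233, -0.0303 and 0.00491.

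**Figure D5:**
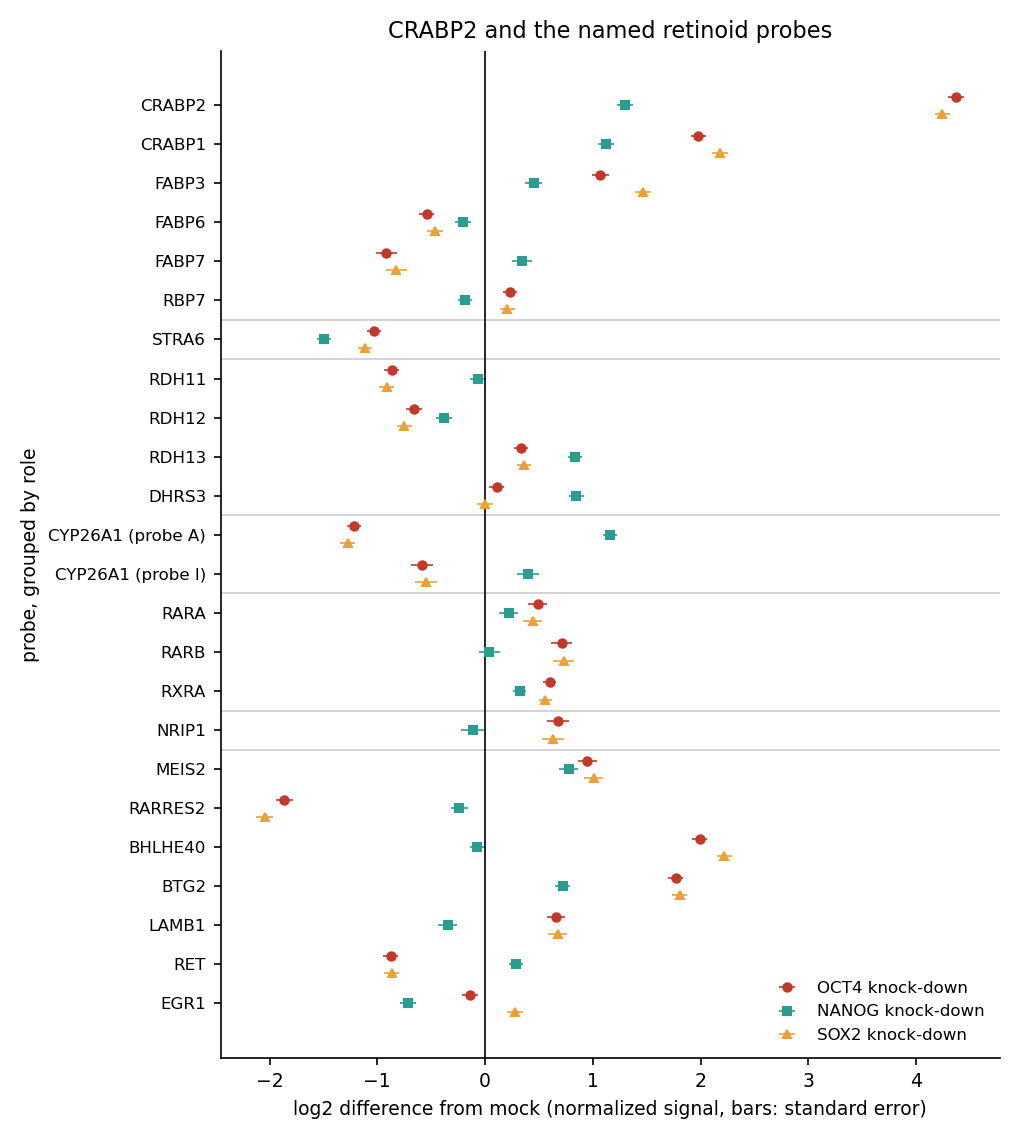
Log2 difference from mock (horizontal axis, normalized signal, bars are standard errors of the fit, for CRABP2 from the SDs) in the 3 knock-downs for CRABP2 and the 23 named retinoid probes, with grey lines between the roles. CRABP2 has the highest OCT4 and SOX2 values of the genes shown, and the main CYP26A1 probe (A) lies at 1.16 in the NANOG knock-down but at -1.22 and -1.28 in the OCT4 and SOX2 knock-downs.

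CRABP1, the closest relative of CRABP2, rose in all 3 knock-downs, and least in that of NANOG. Its raw signal was 2256.3, 2397.6 and 2205.8 in mock, 5500.1, 6382.5 and 5559.4 in the NANOG, 12676.5, 10921.5 and 10747.2 in the SOX2 and 13859.8, 12738.3 and 12097.7 in the OCT4 knock-down. Unlike CRABP2, CRABP1 was thus well above background in mock. The log2 differences from mock were 1.98 (OCT4, adjusted p = 1.16e-13), 1.12 (NANOG, adjusted p = 2.23e-09) and 2.18 (SOX2, adjusted p = 2.95e-14), each with an SE of 0.0721. In the NANOG knock-down the differences of CRABP1 and CRABP2 were 1.12 and 1.30, and in the OCT4 knock-down 1.98 and 4.37.

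Other members of the lipid-binding family did not share one direction. FABP3, a fatty acid carrier of heart and muscle, rose by 1.07 log2 units in the OCT4 and 1.47 in the SOX2 knock-down, with 0.45 in the NANOG knock-down below the fold required. FABP7, the brain fatty acid carrier, fell by 0.92 and 0.82 in the OCT4 and SOX2 knock-downs and differed by 0.34 in the NANOG knock-down. Its raw OCT4 knock-down signals, 543, 373.6 and 445.3, overlapped with 480.6, 573 and 483 in mock. RBP7, a retinol carrier, was not called in any knock-down. Its raw OCT4 knock-down signals, 252.6, 232.3 and 222.1, were above 147.1, 143.7 and 136.7 in mock all the same. The normalized difference there was 0.23. Raw SOX2 knock-down signals of RBP7, 207.6, 189.2 and 185.6, were above mock as well. FABP6, a bile acid carrier, was not called either, but was called lower under 3 of 5 alternative background corrections and scalings in the OCT4, 2 in the SOX2 and 1 in the NANOG knock-down. FABP3 was called in the NANOG knock-down under 3 of them. FABP5, the carrier that delivers retinoic acid to another receptor, was not analysed here, nor were the retinal-oxidising ALDH1A enzymes.

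STRA6, the membrane receptor for retinol uptake, was the named probe of the uptake list and fell in all 3 knock-downs. Its raw signal was 575.4, 561.4 and 502.9 in mock and 252.9, 237.7 and 233.8 in the NANOG knock-down. In the SOX2 knock-down the values were 358.9, 327.2 and 320 and in the OCT4 knock-down 469.8, 434.1 and 424.8, so that mock was highest throughout. After normalization STRA6 fell by 1.49 log2 units in the NANOG, 1.11 in the SOX2 and 1.03 in the OCT4 knock-down. The raw signals fell by less than this, most visibly in the OCT4 knock-down.

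Of the enzymes that interconvert retinol and retinal, DHRS3 and RDH11 were called between the NANOG and the other knock-downs, and RDH12 and RDH13 were not. DHRS3, which reduces retinal to retinol, had raw signals of 138.9, 138.1 and 139.7 in mock and 267.2, 243.5 and 229.3 in the NANOG knock-down. It rose by 0.85 log2 units there (adjusted p = 7.16e-08), while its differences of 0.11 (OCT4) and 0.00 (SOX2) were not called. Its raw signals in the OCT4 (208.1, 215.4 and 203.3) and SOX2 (168.5, 164.5 and 168.7) knock-downs were above mock all the same. Over the 5 alternatives the NANOG difference of DHRS3 was 0.74 to 1.49. RDH11 fell by 0.87 in the OCT4 and 0.91 in the SOX2 knock-down. Its raw OCT4 knock-down signals, 2215, 1696.4 and 1746.5, overlapped with 2148.1, 2444.1 and 2030.1 in mock, so that fall is clear only after normalization. RDH12 and RDH13 were below detection in some groups, so only a bound can be given, formed by setting the dimmer group at the lowest signal of its detected probes or the probe's own signal, whichever was higher. RDH12 was at least 1.38-fold lower in the OCT4 and at least 1.33-fold lower in the SOX2 knock-down, and RDH13 was at least 1.66-fold higher in the NANOG knock-down than in mock. The RDH12 call in the OCT4 knock-down was lost with rank-invariant scaling. Under 3 of the 5 alternatives RDH12 was also called lower in the NANOG knock-down. RDH13 was called higher under 3 of them in the OCT4 (up to 1.08) and 3 in the SOX2 knock-down (up to 1.15).

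CYP26A1, which degrades retinoic acid and is itself a well-known target of RAR, moved in opposite directions. Its main probe had raw signals of 683.8, 707.5 and 615.8 in mock, 1775.4, 1629.8 and 1641.4 in the NANOG, 490.3, 446.9 and 479.5 in the OCT4 and 396.8, 349.4 and 337.7 in the SOX2 knock-down. No NANOG knock-down array overlapped with mock, and all OCT4 and SOX2 knock-down arrays were below mock. CYP26A1 rose by 1.16 log2 units (SE 0.0664, adjusted p = 4.92e-10) in the NANOG knock-down and fell by 1.22 (adjusted p = 3.47e-11) and 1.28 (adjusted p = 1.69e-11) in the OCT4 and SOX2 knock-downs. CRABP2, in contrast, was above mock in all 3. The other CYP26A1 probe was dim, with 0.40 in the NANOG knock-down, and was not detected in the OCT4 and SOX2 knock-downs. It was not called in any of the 3 with the processing used. Under the 5 alternatives it was called lower in 5 in the OCT4 and 4 in the SOX2 knock-down, and also in both without mock array 2 or SOX2 array 3. In the OCT4 knock-down it was called lower as well without OCT4 array 2 or without any single NANOG array.

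Of the receptors, RXRA, the common partner of RAR, had raw signals of 532, 566.5 and 492.1 in mock and 1412.7, 1215.1 and 1146.1 in the OCT4 knock-down. After normalization it rose by 0.60 log2 units there, less than in the raw signals and close to the required fold. Without mock array 3 the difference was 0.58 and the call was lost. In the SOX2 knock-down the difference was 0.56, just short of the call, and without SOX2 array 2 it was 0.59 and was called. RARB was not detected in mock and in the NANOG knock-down and was detected on all OCT4 and SOX2 knock-down arrays. It was at least 1.16-fold higher in the OCT4 and at least 1.17-fold higher in the SOX2 knock-down than in mock, both calls being lost with median scaling and that of the SOX2 knock-down also with background subtraction and rank-invariant scaling. Without OCT4 array 1 the RARB difference in the OCT4 knock-down was 0.58 and was not called. RARA had differences of 0.49, 0.22 and 0.44 on silencing of OCT4, NANOG and SOX2 in this order and was not called. It was called under 3 of the 5 alternatives in the OCT4 knock-down (up to 0.79) and under 2 in the SOX2 knock-down (up to 0.71). RXRA was called in the SOX2 knock-down under 4 of the 5. The upstream window of RARB held 1 half-site, AGTTCA, which occurred in 8.8% of all windows. That of DHRS3 held 1, AGGTCA, which occurred in 12.1%. The windows of CRABP1 and STRA6 were also searched and held no half-site.

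Of the co-regulators that bind the receptors, NRIP1 rose by 0.68 and 0.63 log2 units in the OCT4 and SOX2 knock-downs and differed by -0.12 in the NANOG knock-down. Its call in the OCT4 knock-down was lost without mock array 1 (0.55), and that in the SOX2 knock-down was lost without mock array 1 (0.50), SOX2 array 1 (0.58) or SOX2 array 2 (0.56).

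Among 7 named genes known to respond to retinoic acid, 4 rose and 2 fell in both the OCT4 and the SOX2 knock-down, and 2 rose and 1 fell in the NANOG knock-down. MEIS2, a homeobox factor of limb and hindbrain patterning, rose in all 3, by 0.95 (OCT4), 0.78 (NANOG) and 1.01 (SOX2) log2 units. BHLHE40, a basic helix-loop-helix repressor, rose by 1.99 and 2.22 in the OCT4 and SOX2 knock-downs and differed by -0.07 in the NANOG knock-down. BTG2, an antiproliferative gene detected on 1 of 3 mock arrays, rose by 1.77 (OCT4), 0.72 (NANOG) and 1.81 (SOX2), with the NANOG call lost under median and rank-invariant scaling. Over the alternatives its differences were 1.56 to 3.27, 0.51 to 1.73 and 1.61 to 3.31 in the same order.

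Laminin subunit LAMB1 rose by 0.66 in the OCT4 and 0.67 in the SOX2 knock-down, and the latter call was lost without SOX2 array 2 (0.58). RARRES2, which encodes the chemoattractant chemerin, fell by 1.86 and 2.05 in the OCT4 and SOX2 knock-downs. The receptor tyrosine kinase RET fell by 0.88 in the OCT4 knock-down, where it was detected on 2 of 3 arrays, and by 0.87 in the SOX2 knock-down, where it was detected on 1 of 3. Over the alternatives its differences reached -2.17 and -2.09. EGR1, an immediate early transcription factor, fell by 0.72 in the NANOG knock-down. Its raw OCT4 knock-down signals, 737.3, 571.3 and 676.2, were above 442.2, 461 and 456.3 in mock. The normalized difference there, -0.14, was not called. HOX genes, on the same list, were not analysed here.

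The OCT4 and SOX2 knock-downs were also compared directly. None of the 23 retinoid probes was called by limma between them, where 0.0485% of all tested probes were called. At an unadjusted p under 0.05, 5 of the 23 differed, namely CRABP1, FABP3, RARRES2, BHLHE40 and EGR1. Of these, FABP3 (-0.40, adjusted p = 0.0228) and EGR1 (-0.42, adjusted p = 0.0163) also had a limma adjusted p under 0.05, lower in the OCT4 knock-down. The 95% interval of the OCT4 minus SOX2 difference was -0.355 to -0.0512 log2 units for CRABP1 and -0.0802 to 0.2 for the main CYP26A1 probe. No alternative setting that was run gave a call, the equal-variance test of the methods included. Against the NANOG knock-down, the OCT4 knock-down differed in 14 and the SOX2 knock-down in 15 of the 23 probes, with 12.4% and 12.9% of all tested probes called.

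The targeted genes and cell type markers were checked on the same arrays. POU5F1, which encodes OCT4, had raw signals of 610.5, 546 and 536.2 in mock and 151.5, 133 and 118.5 in the OCT4 knock-down, and NANOG had 342.6, 380.7 and 314.2 in mock and 184.2, 165.6 and 162.1 in the NANOG knock-down. Both fell in their own knock-downs, NANOG by 1.40 log2 units and POU5F1 to signals detected on 1 of 3 arrays. NANOG was also undetected in the OCT4 and SOX2 knock-downs, at least 4.36-fold and at least 4.19-fold lower than in mock. POU5F1 was undetected in the SOX2 knock-down, at least 7.04-fold lower, and was not called in the NANOG knock-down (-0.38). The SOX2 transcript was not analysed here. Of 11 probes for genes of undifferentiated cells, 11 fell in the OCT4, 10 in the SOX2 and 8 in the NANOG knock-down. Of all tested probes, 6.13%, 6.09% and 1.96% fell in the same order. LIN28A, 1 of the 11, had raw OCT4 knock-down signals of 3922, 2859.7 and 2880.8, which overlapped with 2920.3, 3544.5 and 3313.6 in mock. Over the 11 probes the normalized signals summed to 28540 to 29540 in mock and 19220 to 20170 in the NANOG knock-down. They summed to 5647 to 6172 in the SOX2 and 5880 to 6757 in the OCT4 knock-down. Of 6 mesoderm and smooth muscle probes, 6 rose in the OCT4 and SOX2 knock-downs, where 8.58% and 8.72% of all tested probes rose. In the NANOG knock-down 1 of the 6, HAND1, rose, against 2.21% of all tested probes. The 6 summed to 1004 to 1034 in mock and 2358 to 2822 in the NANOG knock-down. In the SOX2 and OCT4 knock-downs the sums were 5740 to 6392 and 6719 to 6880, and HAND1 made up most of each. Without HAND1 the sum of the other 5 was 370.5 to 414 in mock, 400.4 to 424.8 in the NANOG, 1422 to 1482 in the SOX2 and 1423 to 1491 in the OCT4 knock-down, so that mock overlapped with the NANOG and SOX2 with the OCT4 knock-down. In mock, ACTA2 was detected on 1 of 3 arrays and MSX1, ACTC1, COL1A1 and RUNX1 on 0 of 3. In the NANOG knock-down MSX1 was detected on 2, ACTA2 on 1 and the others on 0 of 3. The overlap of mock with the NANOG knock-down is thus mostly one of undetected probes. All 5 were tested only because they were detected on every OCT4 and SOX2 knock-down array. Of the 2 named trophoblast markers, HAND1, which is on both lists, rose in all 3 knock-downs and GATA3 was not called. The GATA3 differences, 0.46 (OCT4), -0.42 (NANOG) and 0.34 (SOX2), passed the adjusted p of the call but not the fold required. Its raw signals were 170.8, 178.3 and 172.5 in mock and 375.9, 337.7 and 344.3 in the OCT4 knock-down. The marker probes were also named from the study's table of probes changed on these samples, so their counts are not independent evidence of a shift. Endoderm, neural, epidermal and blood markers were not analysed here. The part of these shifts in the level of CRABP2 was not tested.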

How the data were processed

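Total RNA (300 ng) of NCCIT cells was amplified (in vitro transcription of 6 h), labelled and hybridised to Illumina human-6 or human-8 BeadChips in biological triplicates, 12 arrays in 4 groups. The deposited array files hold the mean bead intensity per probe, the bead spread (also an intensity) and, per the file headers, a detection score as a fraction, neither background-subtracted nor normalized. The deposited series table holds the authors' group means, intensities after background subtraction and rank-invariant normalization in BeadStudio 1.0. Which array type each file came from is not given in the sources used here.

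From the raw signals, background was corrected with normexp (offset 50), 4 control probes were left out, arrays were quantile normalized, values were floored at 20 and log2 was taken (R 4.3.3, limma 3.58.1). Probes with a detection score of at least 0.99 on all 3 arrays of at least 1 group (12374 of 47289) were fitted with lmFit and eBayes over all 12 arrays, and Benjamini-Hochberg adjustment ran over all of them. A call required an adjusted p under 0.01 and a change of at least 1.5-fold. The scripts were tested on simulated data. The number of arrays limits the precision.

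Gene names came from the name columns of the study's table of changed probes (2985 probes), updated through RefSeq accessions to GRCh38.p14. Probes it does not list are unnamed here, and some genes of the lists and 1 of the 10 nearest probes are not reported here. CRABP2 and all lists were chosen with earlier results of these data known. Named genes were CRABP2, CRABP1, the CYP26, RAR and RXR genes, list members called in any knock-down, the targeted genes and the 10 probes nearest to CRABP2. Other genes in the text are neighbours by rank, or were named after their values were seen. Alternatives were other background corrections, scalings, floors and filters, the t-test of the methods, a replicate block, fits of only the groups compared and leaving out each array.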

Additional observations from a re-analysis of the deposited data

Results flagged for a closer look

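Retinoid probes whose change against mock differed between the NANOG knock-down and the OCT4 or SOX2 knock-down, by the direct limma contrast at an adjusted p under 0.01 and at least 1.5-fold, are listed here with their log2 differences, or with a bound where a group was not detected. Both contrasts share the NANOG knock-down arrays. CRABP1 was higher by 0.85 in the OCT4 and 1.06 in the SOX2 knock-down than in the NANOG knock-down, and FABP3 by 0.62 and 1.02. FABP7 gave -1.26 and -1.17 in the same order. The retinal and retinol enzymes RDH11 (-0.80 and -0.85) and DHRS3 (-0.74 and -0.85) were lower there than in the NANOG knock-down. Against mock, RDH11 fell in the OCT4 and SOX2 knock-downs, whereas DHRS3 was called in neither and rose in the NANOG knock-down.

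CYP26A1 differed most of the retinoid probes, with -2.38 in the OCT4 and -2.44 in the SOX2 knock-down against the NANOG knock-down for its main probe. Its dim probe was not detected in the OCT4 and SOX2 knock-downs and was at least 1.76-fold and at least 1.69-fold lower there than in the NANOG knock-down. RARB was not detected in the NANOG knock-down and was at least 1.19-fold higher in the OCT4 and at least 1.21-fold higher in the SOX2 knock-down. NRIP1 was higher by 0.79 and 0.74.

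Of the retinoic acid-responsive genes, RARRES2 gave -1.62 and -1.81, and RET, detected on 2 of 3 OCT4 and 1 of 3 SOX2 knock-down arrays, gave -1.16 and -1.15. BHLHE40 was higher by 2.06 and 2.29, BTG2 by 1.05 and 1.09, and LAMB1 by 1.004 and 1.02. EGR1 was higher by 0.997 in the SOX2 than in the NANOG knock-down.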

How the results depend on the processing

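No called result changed direction under any alternative, and the CRABP2 differences moved mainly with the background correction. With median scaling the CRABP2 difference was 4.27 in the OCT4 and 4.12 in the SOX2 knock-down. For the OCT4, NANOG and SOX2 knock-downs in this order, it was 5.04, 1.76 and 4.91 with normexp from detection scores, 5.31, 1.95 and 5.18 with background subtraction and quantile normalization, 5.42, 2.05 and 5.31 with background subtraction and rank-invariant scaling, and 5.38, 2.03 and 5.33 from the authors' group means. Both subtractions were chosen after seeing the data. Leaving out each array gave 4.30 to 4.42, 1.24 to 1.35 and 4.18 to 4.30. The number of called probes, 1821, 516 and 1832 as reported, became 3005, 1068 and 2919 with normexp from detection scores, 3252, 1204 and 3176 with subtraction and quantile normalization, 3114, 1179 and 3004 with subtraction and rank-invariant scaling, and 5717, 2453 and 5497 with no minimum fold. Leaving out each array gave 1777 to 1870, 469 to 563 and 1792 to 1890. With the t-test of the methods and Benjamini-Hochberg adjustment 212 probes were called in the NANOG knock-down. Retinoid probes called there numbered 14 with no minimum fold and 8 as reported. Median scaling moved the median of all tested probes to -0.16 in the OCT4 and -0.1 in the SOX2 knock-down, and 38.6% of the OCT4 calls were then higher, against 58.3% as reported. Under it the uncalled OCT4 differences of RDH13 (-0.05) and DHRS3 (-0.09) were below 0, as were the SOX2 difference of DHRS3 (-0.07) and the NANOG difference of RARB (-0.16).

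The replicate numbers appear only in names of the array files. In the normalized log2 signals, arrays with the same number did not deviate together (r from -0.399 to 0.416 over 18 pairs, median -0.0426). The numbers were therefore not taken as pairing. Normalization removes a brightness shared by a whole array, so this check could not show one. Before normalization, array 1 had the highest background of each group, with 99.8 in mock, 118 in the OCT4, 104 in the NANOG and 109.5 in the SOX2 knock-down. With the number as a replicate block, 1821, 516 and 1832 probes were called for OCT4, NANOG and SOX2, the same probes as without it. The block did act, since probes past the adjusted p alone fell in number from 5717 to 5475, 2453 to 2194 and 5497 to 5300, but the minimum fold set the calls. Retinoid probes called numbered 16, 8 and 15 with the block. Between the OCT4 and SOX2 knock-downs 1 probe was called with the block and 6 without it. CRABP2 in mock lay near background, which limits the precision of every ratio to mock.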
